A study of Rattus norvegicus with 74 samples.

Results

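Contracting skeletal muscle releases proteins that act on other cells, often called myokines, and 8 genes for such factors are described here: Fndc5, Metrnl, Il15, Gdf15, Vegfb, Sparc, Fstl1 and Ctsb. They were taken as a named list, by symbol, from tables of 30560 genes, and all 8 were found in the tables of whole muscle, muscle mitochondria and heart. Their identifiers there, in the order given, are ENSRNOG00000030238, ENSRNOG00000046202, ENSRNOG00000003439, ENSRNOG00000019661, ENSRNOG00000021156, ENSRNOG00000012840, ENSRNOG00000002746 and ENSRNOG00000010331. Male wild-type Wistar Kyoto rats, sampled at 9 weeks of age, had either run on a treadmill for 4 weeks from the age of 5 weeks (ExT) or been placed on one that was switched off (Sed). Running took place 5 times a week and reached 60 min at 20 m/min, and tissue was collected 24 h after the last run. Both arms drank water that contained deuterium oxide and were housed in pairs. From the gastrocnemius, a calf muscle, 30 rats gave whole red muscle (SM) and mitochondria that were pulled down with an antibody and treated with RNase-A plus proteinase-K (MT), with 15 SM and 15 MT libraries per arm. The left ventricle (LV) came from 14 of those rats, 7 per arm.

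Fndc5 encodes a membrane protein whose outer domain can be shed as irisin, and its transcription in muscle is known to respond to the coactivator PGC-1alpha (Ppargc1a). Il15 is a cytokine presented to neighbouring cells by Il15ra and read through Il2rb and Il2rg. Metrnl is a hormone-like factor for which the receptor tyrosine kinase Kit has been described as a receptor, and Gdf15 is a stress-induced factor that signals through Gfral and Ret. Vegfb is a growth factor that binds Flt1 and Nrp1 on endothelium and is abundant in oxidative muscle and heart. Sparc and Fstl1 are related secreted glycoproteins, the first a collagen-binding matrix protein made mainly by stromal cells, the second a follistatin-like factor described in heart and muscle. Ctsb, the lysosomal protease cathepsin B, can also be secreted and is held in check by cystatins. The tables measure RNA, so nothing below measures secretion.

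SM libraries held 19477976 to 39401323 counts, MT libraries 530397 to 9988027 and LV libraries 54645657 to 75758777. Levels are given in CPM, a gene's count set against the library total, scaled with TMM factors within a sample type. Where 2 sample types are compared, their libraries are scaled together. A floor of 3 counts equalled 0.0777 to 0.159 CPM in whole muscle, while in MT it was 1.18 to 2.92 CPM and in heart 0.0375 to 0.0553 CPM, counting error only. SM libraries carried 6 myofibre markers at a summed 73302 to 135776 CPM and 6 cardiomyocyte markers at 3.04 to 20.5 CPM. In LV the cardiomyocyte sum was 22059 to 31375 CPM, and the satellite cell markers Pax7 and Myf5 had no count. MT libraries held cardiomyocyte markers (197 to 280 CPM) and adipocyte markers (42.5 to 74.0 CPM, against 0.129 to 23.2 CPM in SM) that whole muscle nearly lacked. Of 5797 nuclear-encoded genes at 0 in all SM and LV libraries, 5331 were counted in MT. In 4 MT libraries (rats 2, 15, 27 and 28) the mitochondrial genome took over 85% of counts, and in 1 SM library (Sed rat 20) fibroblast markers summed to 12452 CPM against a median of 3601 CPM in its group. Rats numbered 2 to 16 (14 rats) and 17 to 32 (16 rats) are also described apart. The labels do not call these ranges a batch.

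In whole muscle Fndc5 and Vegfb were the factors whose levels differed most clearly between trained and sedentary rats, although neither passed the adjusted threshold over all genes. Fndc5 lay at 89.1 CPM in the lowest, 135 CPM in the median and 170.0 CPM in the highest SM_Sed library. The corresponding SM_ExT levels were 109, 171 and 217 CPM. The arms overlapped, but 8 of 15 trained libraries were above every sedentary one and 12 of 15 were above the sedentary median. Mean levels were 169.9 ± 33.8 CPM in SM_ExT and 128 ± 29.8 CPM in SM_Sed (SD, n = 15 each), a 1.32-fold difference (log2 fold change 0.40, SE 0.11, edgeR adjusted p = 0.109). With DESeq2, which called 133 of 13832 genes, the adjusted p was 0.0375 at the same fold change.

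Vegfb showed the same order with a smaller step. Its lowest, median and highest levels were 32.3, 44.2 and 58.9 CPM in SM_Sed and 34.9, 52.8 and 65.2 CPM in SM_ExT. Of the 15 trained libraries, 13 were above the sedentary median and 4 above every sedentary library. The difference was 1.20-fold (log2 fold change 0.27, SE 0.09, edgeR adjusted p = 0.175). Over all 13570 genes tested in SM, 28 were called (0.206%), 25 higher (0.184%) and 3 lower (0.0221%) in ExT, and 0 of the 7 factors tested were among them. Without the SM_Sed library of rat 20 the number of genes called was 14, and 0 of the 7 factors were called.

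For both genes the step between the arms was larger in rats 2 to 16. In those rats all 7 trained libraries exceeded the sedentary median for Fndc5 and for Vegfb. Fndc5 ranged from 149 to 215 CPM in trained and from 89.1 to 165 CPM in sedentary rats of that range (log2 fold change 0.65, SE 0.14, edgeR adjusted p = 0.0235). In rats 17 to 32 the ranges were 109 to 217 CPM and 93.7 to 170.0 CPM (log2 fold change 0.18, SE 0.14, edgeR adjusted p = 0.895). The log2 fold change of Vegfb was 0.44 (SE 0.10, edgeR adjusted p = 0.0337) in the earlier and 0.11 (SE 0.12, adjusted p = 0.924) in the later range. Of all 13570 genes, 397 were called in the earlier range and 1 in the later, so the contrast is not particular to these 2 genes. Tested directly, the training difference changed between ranges by -0.47 for Fndc5 (SE 0.21, unadjusted p = 0.0345, adjusted p = 0.346) and by -0.33 for Vegfb (SE 0.17, adjusted p = 0.402). In that test 0 of 14033 genes were called (0%), with 1803 at an unadjusted p under 0.05. DESeq2 was not run for it.

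**Figure D1:**
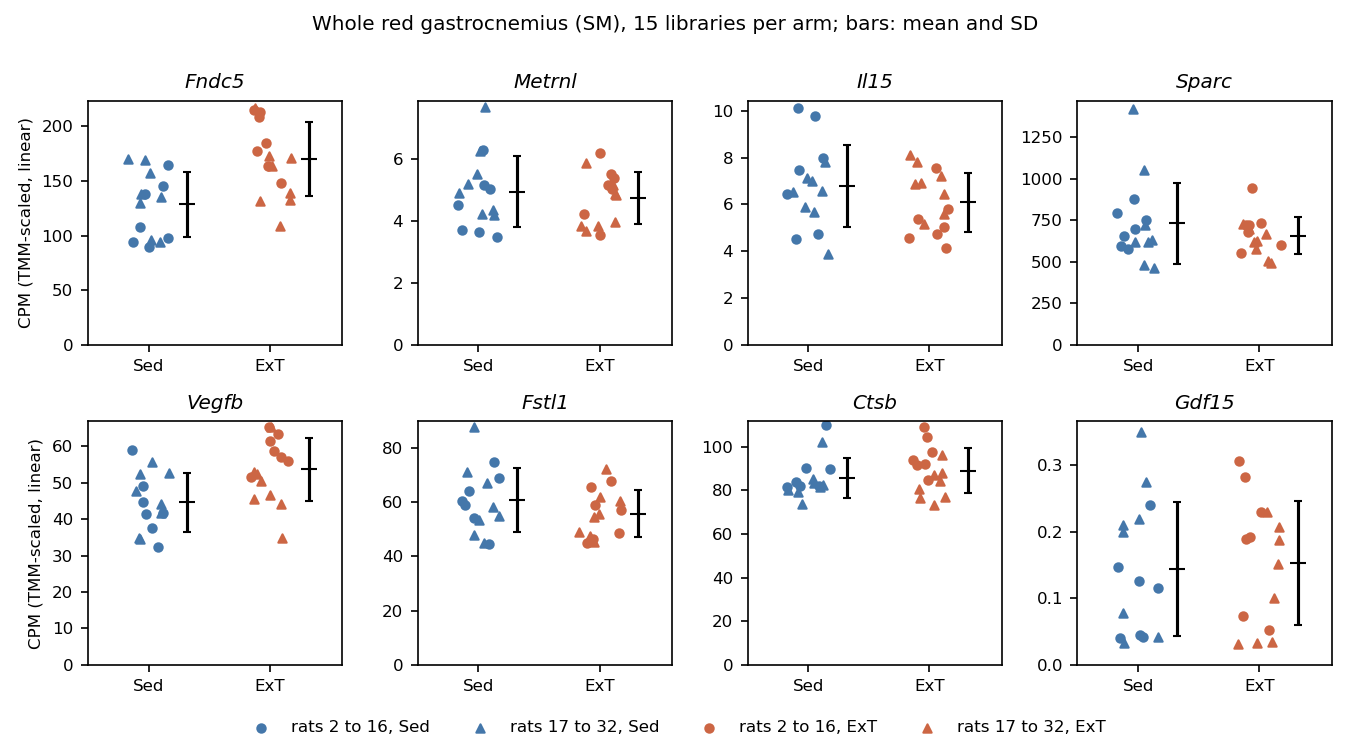
TMM-scaled CPM of the 8 genes in each whole-muscle library, by arm (Sed blue, ExT orange) and rat-number range (circles 2 to 16, triangles 17 to 32), with the mean and SD of each arm in black. Trained libraries reach above the sedentary range in 8 of 15 cases for Fndc5 and 4 of 15 for Vegfb, and the arms overlap for all 8 genes.

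Fndc5 and Vegfb also varied together from rat to rat. After removal of the mean of each arm in each range, their log2 CPM correlated at r = 0.88 over the 30 SM libraries, and at r = 0.92 without that removal. These are descriptions across libraries that share scaling and tissue makeup, so no p is given. Among 8557 genes that have a symbol and average 5 CPM or more, those most like Fndc5 were Ncf1, a NADPH oxidase subunit (r = 0.94), Kremen1, a Dickkopf receptor (r = 0.94), and Atp2a2, the calcium pump of slow and cardiac muscle (r = 0.92). For Vegfb they were Kremen1 (r = 0.898), Cpt1b, which carries fatty acids toward mitochondrial oxidation (r = 0.89), and Fndc5 itself. Of the 16 regulators listed, Esrrg, a nuclear receptor of oxidative muscle, had r = 0.75 with Fndc5 and 0.77 with Vegfb. The coactivator Ppargc1a had r = 0.67 and 0.65, whereas Esrra, at a mean of 6.23 CPM, had 0.33 and 0.29. Other listed regulators had values near those of Ppargc1a. They were Mitf (0.66 and 0.72), Ppara (0.62 and 0.65), Ppard (0.57 and 0.68), Ppargc1b (0.55 and 0.66) and Ddit3 (0.59 and 0.61). Atf4 was low, at 0.08 and 0.12. The relation is therefore not particular to Ppargc1a.

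Marker levels moved with both genes. Fndc5 had r = -0.67 with the summed myofibre markers, which Myh4 of fast fibres led, and r = 0.71 with the low cardiomyocyte sum, led by Myh6. Vegfb had r = 0.71 with the cardiomyocyte sum and r = -0.65 with the fibroblast sum. All 6 myofibre markers and all 6 fibroblast markers had counts in every SM library. The myofibre sum had a median of 102359 CPM in SM_Sed (75838 to 135776) and 90934 CPM in SM_ExT (73302 to 110442). Myh2, the myosin of a faster oxidative fibre type, had a log2 fold change of 0.50 with training (SE 0.16, edgeR adjusted p = 0.175), the 1 positive value among the 6 myofibre markers. The median of the 6 was -0.13, with Myh4 at -0.38 and Mylpf at -0.32, and 0 were called. The part of these markers in the Fndc5 and Vegfb values was not tested. In bulk RNA, fewer cells of a type and less RNA per cell cannot be told apart.

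**Figure D2:**
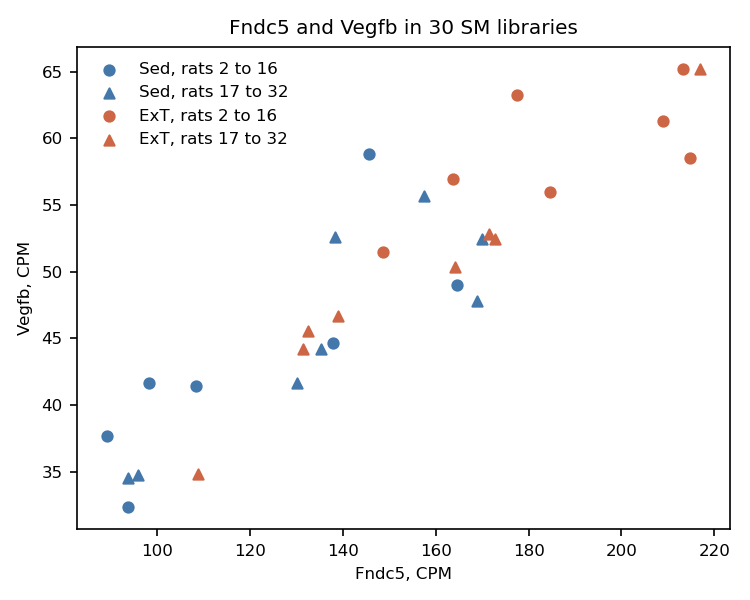
CPM of Vegfb (y axis) against CPM of Fndc5 (x axis) in the 30 whole-muscle libraries, coloured by arm and shaped by rat-number range. Libraries run from low to high in both genes together, and 5 of 7 trained libraries of rats 2 to 16 lie above every sedentary library of that range in Fndc5.

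Because these genes varied together, the 250 bases before the RefSeq start of each (GRCr8 assembly, sense strand) are shown, with capitals where GGGCGG (the GC box) or AGGTCA (a nuclear receptor half-site) was found on either strand.
Fndc5: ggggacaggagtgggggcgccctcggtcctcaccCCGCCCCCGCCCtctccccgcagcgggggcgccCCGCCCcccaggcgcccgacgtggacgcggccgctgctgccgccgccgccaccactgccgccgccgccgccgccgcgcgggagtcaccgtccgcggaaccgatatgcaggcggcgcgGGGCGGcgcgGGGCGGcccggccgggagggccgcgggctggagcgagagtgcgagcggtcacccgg
Vegfb: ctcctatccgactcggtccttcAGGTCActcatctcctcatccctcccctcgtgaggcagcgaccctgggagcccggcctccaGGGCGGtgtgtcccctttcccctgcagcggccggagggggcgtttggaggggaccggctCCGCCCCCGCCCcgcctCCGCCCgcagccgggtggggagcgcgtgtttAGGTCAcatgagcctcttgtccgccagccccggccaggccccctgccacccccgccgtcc
The Fndc5 window is GC-rich, with 5 matches to GGGCGG, and the Vegfb window has 4. Of 33469 promoter windows of the same length, 30.5% held that motif. AGGTCA had 0 matches in the Fndc5 window and 2 in the Vegfb window, and 14.1% of all windows held it. The longer TCAAGGTCA, an element of estrogen-related receptors that contains the half-site, was in neither window and in 0.388% of all. These are matches of letters, which show neither a bound site nor its absence. RefSeq entries were found for 7 of the 8 genes.

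The cytokines and stromal factors showed smaller differences between the arms in whole muscle. Il15 lay at 3.89, 6.58 and 10.1 CPM in the lowest, median and highest SM_Sed library and at 4.15, 5.82 and 8.13 CPM in SM_ExT, with overlapping arms (log2 fold change -0.15, SE 0.12, edgeR adjusted p = 0.6100). Its direction differed by range. It was -0.44 in rats 2 to 16 (adjusted p = 0.160), where 1 of 7 trained libraries exceeded the sedentary median, and 0.10 in rats 17 to 32 (adjusted p = 0.936). The difference between ranges was 0.54 (SE 0.22, unadjusted p = 0.0203, edgeR adjusted p = 0.303). From rat to rat Il15 ran opposite to Fndc5 (r = -0.62) and Vegfb (r = -0.58), and with the myofibre sum (r = 0.60). The 3 genes most like it were Ccdc91 (r = 0.78), the stress kinase gene Map3k5 (r = 0.77) and Gpm6b (r = 0.75).

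Metrnl lay at 3.47, 4.91 and 7.65 CPM in SM_Sed and at 3.55, 4.87 and 6.17 CPM in SM_ExT (lowest, median and highest). Both arms covered nearly the same span, and training gave -0.07 on the log2 scale (SE 0.10, edgeR adjusted p = 0.818). In rats 17 to 32, 4 of 8 trained libraries were below every sedentary one (log2 fold change -0.24, adjusted p = 0.835), and in rats 2 to 16 the value was 0.15 (adjusted p = 0.561). The genes most like Metrnl were Itm2c (r = 0.61), the ectonucleotidase Entpd1 (r = 0.597) and the actin regulator Cttn (r = 0.596), lower values than for the other well-counted factors.

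Gdf15 was close to the limit of detection in muscle, with 1 to 11 counts per SM library. Its highest level was 0.350 CPM in SM_Sed and 0.307 CPM in SM_ExT. It did not pass the filter on low counts in SM, so training has no edgeR value there, and DESeq2 gave a log2 fold change of 0.07 (SE 0.38) with no adjusted p. At these counts no gene's likeness to it is read.

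Sparc and Fstl1, the matrix-linked pair, varied from rat to rat with stromal genes, and training passed no test for either. Sparc lay at 464, 656 and 1421 CPM in SM_Sed, the highest being rat 20, and at 493, 665 and 947 CPM in SM_ExT. The arms overlapped. On the log2 scale training gave -0.15 (SE 0.12, edgeR adjusted p = 0.6100), and -0.05 without rat 20. Fstl1 lay at 44.6, 59.0 and 87.6 CPM in SM_Sed and at 45.0, 55.7 and 72.2 CPM in SM_ExT (log2 fold change -0.12, SE 0.09, adjusted p = 0.539). Sparc and Fstl1 correlated at r = 0.62 with each other, and at 0.90 and 0.64 with the summed fibroblast markers. The genes most like Sparc were Fkbp9 (r = 0.89), Pcolce, an enhancer of procollagen processing (r = 0.88), and Col1a2 (r = 0.87). For Fstl1 they were the stromal surface gene Cd248 (r = 0.94) and the collagen genes Col14a1 (r = 0.93) and Col5a2 (r = 0.92). Fibroblast markers had summed medians of 3601 CPM in SM_Sed and 3313 CPM in SM_ExT. Their part in the 2 genes' values was not tested.

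Ctsb was the steadiest of the 8 in whole muscle. It lay at 73.7, 82.7 and 109.9 CPM in SM_Sed and at 73.5, 88.0 and 109 CPM in SM_ExT, and the arms covered the same span. Training gave a log2 fold change of 0.05 (SE 0.06, 95% interval -0.06 to 0.17, edgeR adjusted p = 0.716). Across the 30 libraries its coefficient of variation was 11.1%, against 25.3% for Fndc5 and 27.3% for Sparc, while counting error alone would give 2.03%, 1.55% and 0.724%. Ctsb was most like Csf1r, the receptor that marks macrophages (r = 0.80), Pam (r = 0.78) and the lysosomal Fuca1 (r = 0.77). It had r = 0.72 with the summed macrophage markers, which were 29.3 to 127 CPM in SM, with all 6 detected in every library.

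With edgeR over all rats, lists of genes around these factors gave 0 called genes with training in SM, MT and LV. They held 12 receptors and partners, 31 relatives by family, 24 other factors described as secreted by muscle, 16 regulators, and 10 cathepsin B inhibitors and lysosome genes. In SM, the median log2 fold change was 0.13 for the 16 regulators tested, of which 14 were above 0. For 11 receptors and partners it was 0.11, with 8 above 0, and for 10 inhibitors and lysosome genes 0.06, with 7 above 0. For 24 relatives it was -0.02, with 9 above 0, and for 17 other secreted factors -0.04, with 7 above 0. The share of all genes above 0 was not counted. Over all genes it was -0.01. With DESeq2, 1 receptor or partner, 1 other secreted factor and 1 regulator were called higher in SM, where 101 of 13832 genes were. In rats 2 to 16 edgeR called 1 receptor or partner and 3 regulators higher, and on library totals 1 other secreted factor. Of all 13570 genes, 290 were called higher in rats 2 to 16 and 32 on library totals. The gene with the smallest p in each list was chosen after its values were seen. Among them were Itgav, an integrin subunit described as part of the irisin receptor, at 0.20 (SE 0.05, edgeR adjusted p = 0.0789), and Lgi3 at 0.50 (SE 0.11, adjusted p = 0.0528). Epas1, the hypoxia-inducible factor of endothelium, was at 0.29 (SE 0.08, adjusted p = 0.109). The Vegfb receptors Flt1 and Nrp1, also named after their values were seen, were at 0.30 (adjusted p = 0.158) and 0.23 (adjusted p = 0.175). Among marker sets in SM, 0 of 6 macrophage markers (median -0.34) and 0 of 6 fibroblast markers (median -0.17) were above 0, with 0 called. All 6 endothelial markers had positive values in SM, with 0 called, and their summed median was 450 CPM in SM_Sed and 497 CPM in SM_ExT. Their part in the receptor values was not tested.

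In isolated mitochondria 0 of the 8 factors were called with training, and 0 of 19281 genes were (0% with edgeR, 912 at an unadjusted p under 0.05, and 0 with DESeq2). Counts were few. Fndc5 had 12 to 44 counts per MT library, Il15 8 to 32, Vegfb 8 to 41 and Gdf15 1 to 28. The spread of Il15 over MT libraries, 24.1%, was no larger than the 24.4% that counting error alone would give. Fndc5 lay at 9.76, 16.7 and 24.1 CPM in MT_Sed and at 11, 16.8 and 26.4 CPM in MT_ExT (lowest, median and highest), and the arms covered the same span (log2 fold change 0.04, 95% interval -0.22 to 0.29). Metrnl lay at 19.6, 30.1 and 36.3 CPM in MT_Sed and at 15.6, 26.1 and 38.3 CPM in MT_ExT (log2 fold change -0.06, 95% interval -0.26 to 0.13). Among the other factors Fstl1 had 0.17 (SE 0.10), Ctsb 0.11, Vegfb -0.13, Gdf15 -0.21 and Il15 -0.01.

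Sparc was the exception in spread. Its level was 18.8, 31.4 and 227 CPM in MT_Sed and 15.0, 33.1 and 319.9 CPM in MT_ExT, with a coefficient of variation of 121% against 10.9% from counting. The high libraries were those of rats 2, 27 and 28 in MT_ExT and of rat 15 in MT_Sed, so the arms held them unequally. Training gave a log2 fold change of 0.32 (95% interval -0.62 to 1.26), and -0.34 (SE 0.22) without those 4 libraries, neither called.

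To show this without the mitochondrial counts in the denominator, Sparc was expressed as CPM of the nuclear-encoded counts alone. It was 215 to 720.2 in the 4 libraries above 85% mitochondrial share and 36.1 to 181 in the other 26, and the sets did not overlap. The 85% limit was chosen after seeing the data. How many of all genes separated these sets was not counted, so the separation is not read as particular to Sparc. Over the 30 MT libraries Sparc rose with the mitochondrial share (Pearson r = 0.72, Spearman rho = 0.87, permutation p = 1e-05 for each, the smallest the resampling can give, adjusted over the 8 factors 8e-05). Without the 2 libraries farthest from the median share, r was 0.71. It was 0.77 in the 26 libraries at or below 85%, and rho was 0.78 in rats 2 to 16 and 0.94 in rats 17 to 32. Ctsb had r = 0.52 (permutation p = 0.00342, adjusted p = 0.0137) but rho = 0.34 (adjusted p = 0.132), and r = 0.18 at or below 85%, so its relation rests on the 4 libraries. Il15 had r = 0.42 (adjusted p = 0.0459, rho 0.42, adjusted p = 0.0841). Its r was 0.32 at or below 85%, and its rho was 0.13 in rats 2 to 16 and 0.54 in rats 17 to 32. For Gdf15 r was -0.42 (adjusted p = 0.0459, rho -0.36, adjusted p = 0.130), and -0.25 at or below 85%. Its direction differed by range, with rho at 0.19 in rats 2 to 16 and -0.69 in rats 17 to 32. Fndc5, Metrnl, Vegfb and Fstl1 had adjusted permutation p of 0.815, 0.127, 0.437 and 0.775 for r.

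Stromal markers moved with Sparc in these libraries. The 6 fibroblast markers, all detected in every MT library, summed to 873 to 3861 CPM in the 4 libraries and to 208 to 619 CPM in the others, with rho = 0.92 against the mitochondrial share. Myofibre markers summed to 672 to 1190 CPM and 216 to 724 CPM (rho 0.72). The sums of cardiomyocyte, adipocyte, macrophage and mural markers overlapped between the sets, with rho between -0.04 and 0.20. The endothelial sum did not overlap, at 249.9 to 327 CPM in the 4 libraries and 209.7 to 248 CPM in the others (rho 0.30). The part of these markers in the Sparc values was not tested.

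**Figure D3:**
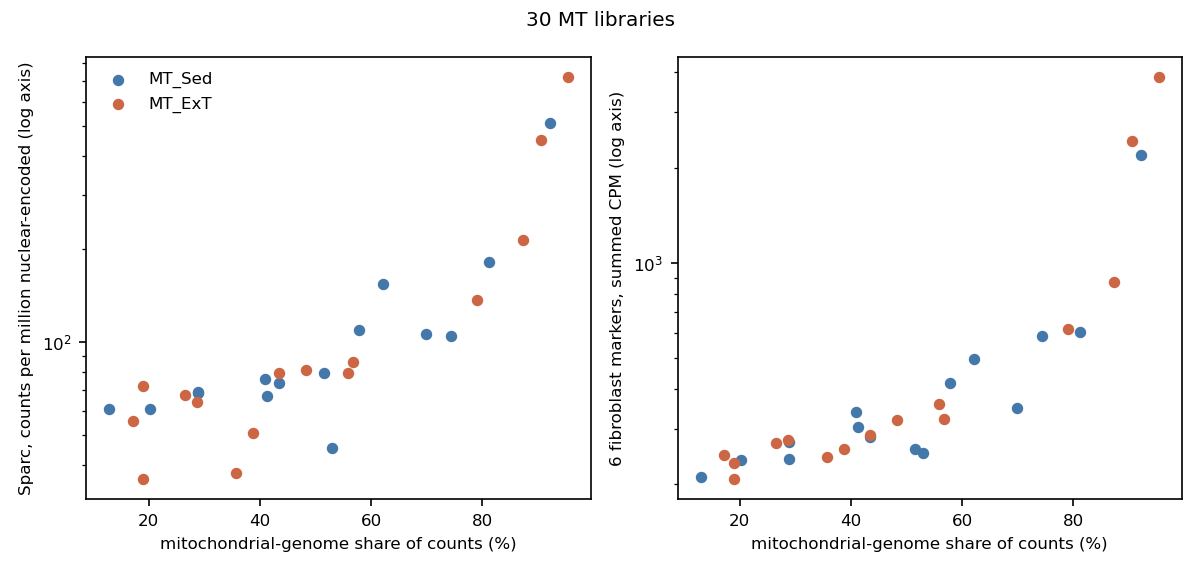
Sparc as CPM of nuclear-encoded counts (left) and summed CPM of 6 fibroblast markers (right), both on log axes, against the mitochondrial-genome share of counts in percent, in 30 MT libraries coloured by arm. Both rise with the share, and the 4 libraries above 85% have the highest values.

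In the left ventricle 0 of the 8 factors were called with training, and 0 of 14488 genes were (0% with edgeR, 855 at an unadjusted p under 0.05, and 0 with DESeq2). Vegfb lay at 33.4, 38.2 and 42.4 CPM in LV_Sed and at 35.6, 40.2 and 47.5 CPM in LV_ExT (lowest, median and highest), and 3 of 7 trained libraries were above every sedentary one (log2 fold change 0.14, SE 0.07, unadjusted p = 0.0518 in edgeR, adjusted p = 0.804). Fndc5 lay at 42.2, 51.7 and 62.5 CPM in LV_Sed and at 49.8, 53.6 and 59.8 CPM in LV_ExT, with 6 of 7 trained libraries above the sedentary median but none above the sedentary range (log2 fold change 0.12, SE 0.08, edgeR adjusted p = 0.826). Il15 had a log2 fold change of 0.16, Gdf15 0.23, Metrnl 0.01, Ctsb -0.03, Sparc -0.07 and Fstl1 -0.19, and the 95% interval of every factor included 0. Fstl1, at 77.6 to 149.6 CPM in LV_Sed and 78.1 to 142 CPM in LV_ExT, varied most among the well-counted factors in LV (coefficient of variation 22.5%). It had r = 0.87 with the fibroblast sum and r = -0.72 with the cardiomyocyte sum over 14 libraries. Fibroblast markers summed to 1754 to 3989 CPM in LV, and their part was not tested.

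Whether training acted differently on the factors in MT or LV than in SM was tested by interaction. For MT against SM, 0 of the 8 were called, where 5 of 27684 genes were (0.0181%), 1 higher (0.00361%) and 4 lower (0.0144%), and 3 with the rat as a block. Fndc5 had -0.40 (SE 0.19), Vegfb -0.43 (SE 0.21) and Fstl1 0.27 (SE 0.14), with edgeR adjusted p of 0.564, 0.5700 and 0.584 and unadjusted p of 0.0380, 0.0408 and 0.0472. For LV against SM in the same 14 rats, 0 of the 8 and 0 of 15049 genes were called (0% with edgeR, 687 at an unadjusted p under 0.05, 3 with DESeq2). The value was -0.18 for Fndc5 (95% interval -0.50 to 0.14) and -0.01 for Vegfb (-0.30 to 0.28).

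**Figure D4:**
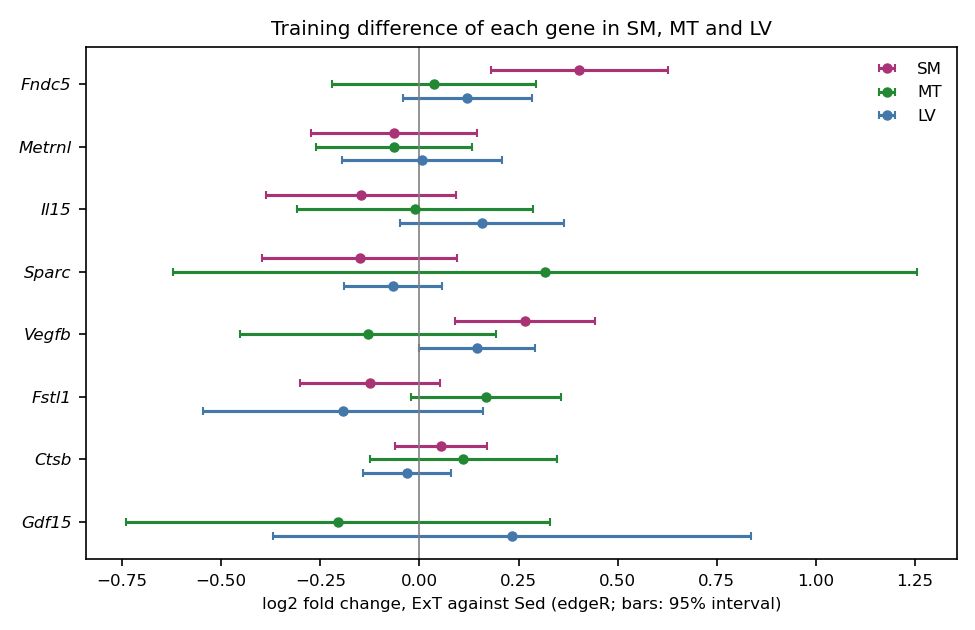
Log2 fold change of ExT against Sed with its 95% interval (edgeR) for each gene in whole muscle (SM), mitochondria (MT) and left ventricle (LV). Intervals leave out 0 only for Fndc5 (0.40) and Vegfb (0.27) in SM, where neither was called after adjustment, and Gdf15 has no SM value because it did not pass the filter.

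Between heart and muscle the factors differed much more than between arms. The SM libraries here are those of the 14 rats that also gave LV, scaled together with them. Fndc5, Il15 and Vegfb were lower, and Fstl1 and Ctsb higher, in LV than in SM in both arms. In Sed rats 5 of the 8 were called, 2 higher and 3 lower, where 78.7% of 14367 genes were called (40.0% higher and 38.6% lower). In ExT rats 6 of the 8 were called, 3 higher and 3 lower, against 79.3% of 14338 genes (39.7% higher and 39.5% lower). The 3 higher include Gdf15, which entered only through its LV counts and whose call is not read. The shares of factors called are near those of all genes. How many of all genes had no overlap between LV and SM libraries was not counted. Separation of libraries is therefore not read as particular to the factors. On library totals the median of all genes moved from 0.04 to 0.28 in Sed, with 7226 genes higher and 4296 lower, and from 0.01 to 0.21 in ExT, with 6811 and 4549. The 5 factors called in both arms kept their direction. LV libraries used another kit and 100 ng of RNA, against 50 ng for SM, so tissue and library preparation cannot be told apart.

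Fndc5 had the largest difference of the 8. It lay at 38.3, 47.4 and 57.4 CPM in LV_Sed and at 101, 146 and 179 CPM in SM_Sed, with every LV library below every SM library (3.18-fold lower in LV, log2 fold change -1.67, SE 0.11, edgeR adjusted p = 1.21e-10). In ExT rats it lay at 46.1, 50.8 and 56.4 CPM in LV and 143, 185 and 234 CPM in SM, again without overlap (3.64-fold lower, log2 fold change -1.86, SE 0.11, adjusted p = 4.92e-12). Il15 was also lower in every LV library, at 2.69 to 3.34 CPM in LV_Sed against 4.78 to 8.23 CPM in SM_Sed (log2 fold change -1.15, SE 0.11, edgeR adjusted p = 8.91e-09), and its value was -1.01 in ExT. For Vegfb the log2 fold change was -0.55 in Sed, where LV (30.4 to 39.8 CPM) and SM (36.7 to 62.1 CPM) overlapped, and -0.58 in ExT, where they did not.

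Ctsb was higher in every LV library than in any SM library, at 146 to 177 CPM in LV_Sed and 77.8 to 94.8 CPM in SM_Sed (1.94-fold, log2 fold change 0.96, SE 0.06, edgeR adjusted p = 1.29e-11). The value was 0.86 in ExT. Its relatives Ctsl and Ctss were called higher in LV_Sed too (log2 fold changes of 1.72 and 1.52), as were the cathepsin inhibitor Cstb (1.72) and the lysosomal membrane gene Lamp2 (1.44), whereas the lysosomal sialidase gene Neu1 (-1.32) was lower. Of the 10 inhibitors and lysosome genes, 6 were higher and 3 lower in each arm (6 and 1 on library totals in Sed). Fstl1 was 1.79-fold higher in LV_Sed (log2 fold change 0.84, SE 0.13, edgeR adjusted p = 1.8e-05) with slight overlap, at 72.8 to 136 CPM in LV and 47.5 to 74.8 CPM in SM, and its value was 0.68 in ExT. The 6 macrophage markers had a median log2 fold change of 0.82 in both arms, with 4 called higher in Sed, 5 in ExT and 0 lower. The 6 fibroblast markers had 0.68 but were mixed, with 4 higher and 2 lower in Sed and 3 and 2 in ExT. Scaled within a sample type, the fibroblast sum had a median of 2957 CPM in LV_Sed and 3601 CPM in SM_Sed (2456 and 3313 CPM in ExT). The part of these markers in the Ctsb and Fstl1 differences was not tested.

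Sparc and Metrnl did not pass the test. Sparc had a log2 fold change of -0.21 in Sed (95% interval -0.68 to 0.25) and 0.02 in ExT (-0.15 to 0.19). The Sed value was 0.02 without SM rat 20. Metrnl had -0.12 (-0.33 to 0.10) and -0.08 (-0.32 to 0.15). Gdf15, at 11 to 41 counts per LV library, was at 0.149 to 0.462 CPM in LV_Sed and 0.0352 to 0.291 CPM in SM_Sed, with overlap. It entered the test only through its LV counts, so its values there, called in ExT and not in Sed, are not read as a difference. Several SM libraries were at or under the floor of 3 counts for this gene.

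Around the factors, 7 of 11 receptors and partners tested were higher in LV_Sed, among them Kit (1.37 on the log2 scale) and Itgav (1.05), and 1, Ret (-1.73), was lower. Among 24 relatives by family tested, 15 were higher and 6 lower, Smoc2 furthest down (-2.24) and Vegfa at -0.69. For the other muscle-secreted factors the split was 8 and 8 of 20, with Bdnf, a neurotrophin, at 2.95 and Cx3cl1 at 1.99, against Igfbp5 at -1.0 and Tgfb2 at -0.62. Of the 16 regulators 6 were higher, including Mitf (1.16) and Ppara (0.92), and 10 lower, including the stress gene Ddit4 (-2.75) and the lysosomal regulator Tfeb (-1.90). The median over all genes was 0.04, with 40.0% of genes called higher and 38.6% lower.

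**Figure D5:**
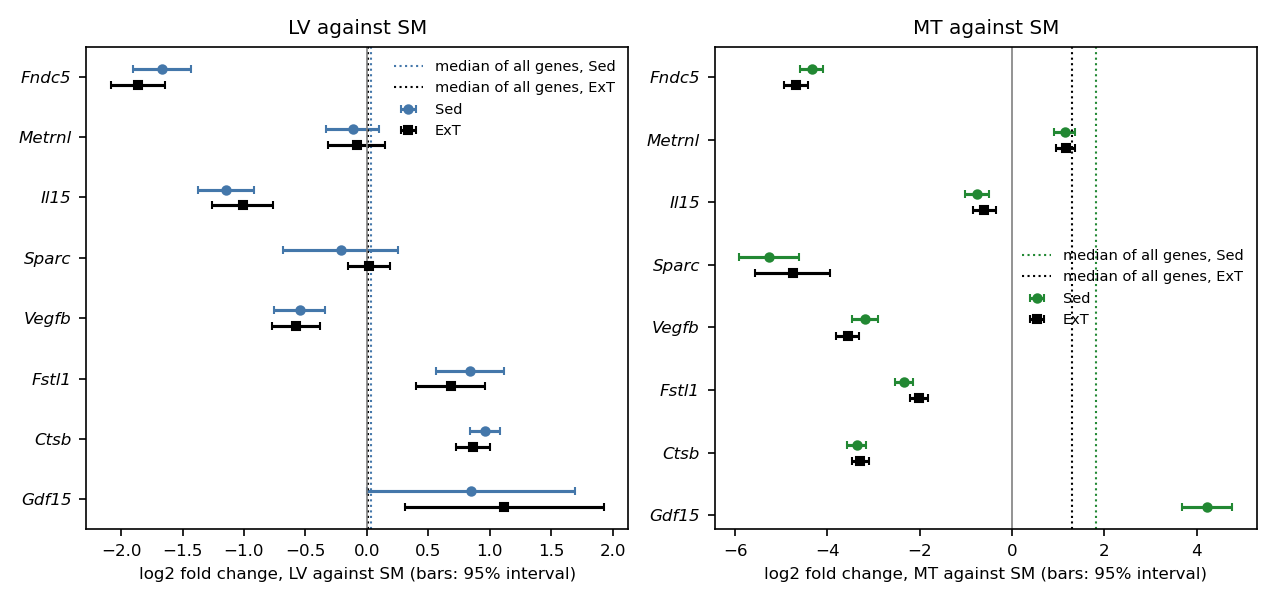
Log2 fold change with its 95% interval (edgeR) of each gene in LV against SM (left) and MT against SM (right), circles for Sed and squares for ExT. Dotted lines give the median over all genes tested, near 0 for LV and at 1.81 (Sed) and 1.31 (ExT) for MT, where Gdf15 has a value in Sed only.

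In MT against SM most factors made up a smaller share of the library than in whole muscle. All 8 were called in Sed rats, 2 higher (Metrnl and Gdf15) and 6 lower, where 94.8% of 22842 genes were called (61.7% higher and 33.1% lower). Gdf15 entered this test only through its MT counts, so its call is not read. In ExT rats 7 were tested and called, 1 higher and 6 lower, against 94.3% of 21312 genes (59.3% higher and 35.0% lower), so a call alone says little here. The median over all genes was 1.81 in Sed and 1.31 in ExT. MT and SM libraries of an arm were scaled together here, so their CPM differ from those given above within a sample type. MT libraries were made from 10 ng of RNA after RNase treatment, and input, treatment and compartment cannot be told apart.

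The lower factors were far below that median. Sparc lay at 11.8, 19.9 and 142 CPM in MT_Sed and at 766, 1104 and 2289 CPM in SM_Sed, with no overlap (38.4-fold lower in MT, log2 fold change -5.26, SE 0.32, edgeR adjusted p = 6.18e-16). Fndc5 lay at 6.13, 10.5 and 15.1 CPM in MT_Sed and at 147, 219 and 279 CPM in SM_Sed (20.2-fold lower, log2 fold change -4.34, SE 0.12, adjusted p = 2.74e-31). In both arms each MT library was below each SM library for Sparc, Fndc5, Ctsb, Vegfb and Fstl1. How many of all genes separated in this way was not counted, so it is not read as particular to these factors. The Sed log2 fold changes were -3.37 for Ctsb, -3.19 for Vegfb and -2.34 for Fstl1. In ExT they were -4.69 for Fndc5, -4.76 for Sparc, -3.29 for Ctsb, -3.56 for Vegfb and -2.02 for Fstl1. Il15 was at -0.76 in Sed and -0.60 in ExT with overlapping libraries. On library totals without TMM factors it turned to 0.81 and 0.87, with the median of all genes at 3.43 and 2.92 and with 17616 genes higher and 2811 lower in Sed. There Fstl1 was -0.42 in ExT and no longer called (edgeR adjusted p = 0.181). With every library thinned to the smallest total, 5 of 7 factors tested were called in Sed and 2 of 6 in ExT. Over all genes tested, 3942 of 9180 were called in Sed and 1964 of 7104 in ExT. The numbers of factors called are therefore not read as particular to them. Sparc and Vegfb kept their calls in both arms (-3.74 and -1.58 in Sed, -3.19 and -1.92 in ExT). Fndc5 (-2.29), Metrnl (1.86) and Ctsb (-1.47) kept theirs in Sed but not in ExT, where they were at -1.47, 1.54 and -1.41 with edgeR adjusted p of 0.0590, 0.0730 and 0.0676. Fstl1 was at -0.12 in Sed and 0.88 in ExT (edgeR adjusted p = 0.310).

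Metrnl was higher in MT, and Gdf15 had higher levels there. Metrnl lay at 12.2, 18.9 and 22.7 CPM in MT_Sed and at 5.71, 7.99 and 12.5 CPM in SM_Sed, with slight overlap (2.21-fold, log2 fold change 1.14, SE 0.11, edgeR adjusted p = 1.83e-13), and at 1.16 in ExT. Set against the median gene, its log2 difference was -0.67 in Sed and -0.15 in ExT. Gdf15 lay at 0.339 to 8.07 CPM in MT_Sed and 0.0539 to 0.571 CPM in SM_Sed. It passed the filter on low counts only through MT, and SM libraries lay at or near the floor, so its size of difference is not read. Both values stand beside the cardiomyocyte and adipocyte transcripts that MT libraries also held, whose origin was not tested.

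In MT_Sed 61.7% of all genes were called higher and 33.1% lower, and on library totals 17616 of 22842 were higher and 2811 lower. Beside that, the lists around the factors differed in their split. In MT_Sed all 10 inhibitors and lysosome genes were lower, with Psap (-5.20) and Cst3 (-4.67) furthest, as were 15 of 16 regulators, with Epas1 (-4.45) and Atf4 (-4.29) furthest. On library totals 5 of the 10 were higher and 5 lower, and of the regulators 1 was higher and 6 lower. The receptors and partners split into 6 higher and 5 lower of 12, with the Il15 receptor subunit Il2rb at 3.21 and Kit at 1.17 against the integrin Itgb1 at -4.25 and Nrp1 at -3.08 (7 and 2 on library totals). Relatives by family split evenly, 12 higher and 12 lower of 28 (18 and 6 on library totals), with Vegfa at -4.51 and Ctsd at -4.48. The Fstl1 relatives Fstl5 and Fstl4 averaged 10.9 and 15.0 CPM in MT_Sed and 0.00459 and 0.0805 CPM in SM_Sed, where they were at or under the floor. Of the other muscle-secreted factors 13 of 23 were higher, with Chi3l1 at 3.62 and Bmp7 at 3.06, and 7 lower, with Igfbp5 at -4.97 and Dcn at -4.40 (17 and 4 on library totals).

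Set in order, Fndc5 and Vegfb were highest in SM and lower in LV and in MT, and Ctsb and Fstl1 were highest in LV, next in SM and lowest in MT, apart from the Fstl1 values on library totals and after thinning given above. Sparc and Metrnl had intervals of the LV difference that included 0 in both arms. MT and LV were not set against each other in a test. Each arm of a sample type overlapped the other for all 8 genes.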

How the data were processed

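Libraries were made, per the labels' protocols, with a Zymo RiboFree kit from 50 ng (SM) or 10 ng (MT), and with an Illumina Ribo-Zero kit from 100 ng (LV). The authors deposited counts per gene, whole numbers, as 3 tables. The submitters' processing notes name FastQC 0.74, cutadapt 4.6, STAR 2.7.11a, HTSeq and build mRatBN7.2. Annotation release and strand setting are not given in the sources used here, so reads of Fstl1 and Gdf15, which overlap 1 other RefSeq gene each, may include that gene's.

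Counts were tested with edgeR 4.0.16 (R 4.3.3, quasi-likelihood F test, TMM, filterByExpr, robust dispersions) on the libraries of each comparison. P-values were adjusted by Benjamini-Hochberg over all genes tested, and genes under 0.05 were called. DESeq2 1.42.0, library totals, other filters, rat-number ranges and left-out libraries were alternatives. The edgeR fit of training in SM was tested on simulated data, and the other fits were not. The rats are separate animals. SM, MT and LV of 1 rat share a number, so numbers pair the samples by animal, yet the median correlation of their deviations was 0.0149 for SM with MT and 0.0163 for SM with LV. No 2 libraries were identical or alike within sampling noise. Correlations used Python 3.11.15 and scipy 1.17.1.

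The members and gene lists were chosen with earlier results of these data known. Named list genes were the called ones in training comparisons (at most 4 by smallest adjusted p) and, between sample types, the 2 largest rises and 2 largest falls with a mean of at least 5 CPM, of which 1 is not reported here. For each member the 3 genes of highest correlation in SM, with a mean of at least 5 CPM and a prior count of 2, were named. RefSeq promoter sequences are of GRCr8, and no coordinates are given because the files use another build.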

Additional observations from a re-analysis of the deposited data

Results flagged for a closer look

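Among 16 pairs of a gene and an LV group (7 libraries each), 2 had a library far from the others, where chance would give about 1 in 20. Metrnl was 7.01 CPM in LV_ExT rat 18, above the other 6 trained hearts, with a group median of 5.03 CPM. Ctsb was 155 CPM in LV_Sed rat 16, below the other 6 sedentary hearts, with a group median of 183 CPM.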

How the results depend on the processing

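Of 664 values of single factors under other settings, 616 kept their direction and their side of the threshold, 36 changed sign, 5 passed the threshold only under the alternative and 7 no longer passed it. The cause of these changes was not tested unless the alternative itself uses fewer libraries or counts. For training in SM, 1 factor was called with DESeq2 and 2 in rats 2 to 16. Genes called numbered 28 as reported, 133 with DESeq2, 45 with the range as a covariate, 397 in rats 2 to 16, 1 in rats 17 to 32 and 14 without SM_Sed rat 20, an alternative chosen, like the 85% limit, after seeing the data. Metrnl (0.15) and Sparc (0.010) changed sign in rats 2 to 16, and Il15 (0.10) and Ctsb (-0.010) in rats 17 to 32. For training in MT, the signs changed in rats 17 to 32 for Fndc5 (-0.24), Metrnl (0.068), Il15 (0.064) and Vegfb (0.049), and in rats 2 to 16 for Ctsb (-0.063). Sparc changed to -0.11 on library totals, -0.15 with DESeq2 and -0.34 without libraries over 85% mitochondrial share, where Gdf15 was 0.032. In LV, Metrnl was -0.032 in rats 17 to 32.

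Thinning left 5 factors called for MT against SM in Sed and 2 in ExT. Genes called were 3942 of 9180 tested in Sed (21648 of 22842 as reported) and 1964 of 7104 in ExT (20092 of 21312). Il15 changed sign on library totals (0.81 in Sed, 0.87 in ExT) and when thinned in Sed (0.47), and Fstl1 when thinned in ExT (0.88). For LV against SM, Metrnl changed sign on library totals (0.13 in Sed, 0.12 in ExT). Sparc did so in Sed on library totals (0.030) and without SM_Sed rat 20 (0.017), and in ExT in rats 17 to 32 (-0.011). For training in MT minus SM, genes called numbered 0 on library totals, 32 with DESeq2, 19 in rats 2 to 16, 1 in rats 17 to 32 and 2 when thinned. Metrnl changed sign on library totals (0.017), in rats 17 to 32 (0.30), without libraries over 85% (0.028) and thinned (0.498). Without libraries over 85%, Il15 was -0.00105, Sparc -0.22 and Ctsb -0.037. Il15 was -0.055 and Gdf15 0.19 in rats 17 to 32, and Ctsb -0.21 in rats 2 to 16. For LV minus SM, DESeq2 called 3 genes. Metrnl was -0.0082 on library totals, and Vegfb 0.058 in rats 17 to 32 and 0.052 without SM_Sed rat 20.

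With the rat number as a replicate block, 3 genes were called for training in MT minus SM against 5 without it, and the block changed the call of 0 of the 8 factors. In the comparisons between sample types it moved the number of genes called by less than 1.5 times. Leaving out each of the 15 or 7 replicates in turn was not run. Depth limits the MT values, where group medians of the 8 factors were 8 to 63 counts per library.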
